A study of Mus musculus with 6 samples.

Results

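The clock output and PAR bZIP genes are 9 genes that carry the time signal of the circadian oscillator to the rest of the liver cell: Dbp, Tef, Hlf, Nfil3, Bhlhe40, Bhlhe41, Rora, Ciart and Usp2. They were taken by gene symbol from the deposited gene table, in which all 9 were found among 16135 genes. Liver RNA had been sequenced in 3 control libraries, from mice whose Acss2 is floxed but intact (ACSS2-flox), and in 3 libraries of a hepatocyte-specific knockout (ACSS2-HKO). ACSS2 makes acetyl-CoA from acetate, a product of ethanol breakdown. Both groups had been fed the Lieber-DeCarli liquid diet with ethanol for 10 days and then given 1 ethanol binge, so no group without ethanol enters the comparison. No source used here gives the promoter that drives the Cre recombinase, the sex and age of the mice, or the hour at which livers were taken. Liver cells other than hepatocytes keep an intact Acss2 gene by design. Whether each library is a different animal is not stated in the labels, so every p-value measures the spread between these libraries, which may be technical.

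The circadian clock is a feedback loop in which the activators CLOCK and BMAL1 (gene Arntl) bind E-box sequences and switch on their own repressors, the PER and CRY proteins, as well as output genes. DBP, TEF and HLF are the PAR bZIP factors, activators that bind the D-box sequence. NFIL3, also called E4BP4, represses through the same D-box. BHLHE40 and BHLHE41 (DEC1 and DEC2) compete at E-boxes, and RORA activates genes through ROR elements, among them Arntl and Nfil3. In liver the PAR bZIP factors are known for their control of drug, bile acid and fatty acid metabolism. CIART, or CHRONO, is a repressor of CLOCK and BMAL1, and USP2 is a deubiquitinating enzyme whose transcript is a strongly rhythmic output.

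Sequences just before the start sites were searched for exact spellings of the clock's own motifs. RefSeq windows of the 250 bases before each start (build GRCm38.p6, the same assembly as mm10) were available for 8 of the 9 members, in 9 windows, and were searched on both strands for the E-box CACGTG, which reads the same on both strands. Of all 32851 windows of that length, 6.02% held at least 1 such E-box, 0.429% at least 2 and 0.061% at least 3. Ciart held 3, and Tef and Bhlhe41 held 1 in each of their windows, so 3 members had a match. Of 10 core clock genes with a window, 2 held an E-box. Of these, Per1 is shown beside the members, with 1 E-box before its upstream start and 0 before its downstream start. Among the other lists used below, 4 of 8 glucocorticoid-induced genes with a window (Per1 among them) and 3 of 12 D-box factor targets held an E-box. For ROR and REV-ERB targets it was 1 of 5, and for other rhythmic liver outputs 0 of 6. The D-box TTATGTAA was in 0.819% of all windows and in no member's window. The core clock gene Per3 held 2 copies, and 0.0183% of windows held 2 or more. A match is a description of letters and does not show that a factor is bound. The stretches with matches read as follows, 5′ to 3′ on the gene's strand, with the E-box or, for Per3, the D-box in capitals.
Ciart, chr3:95882259-95882358, minus strand: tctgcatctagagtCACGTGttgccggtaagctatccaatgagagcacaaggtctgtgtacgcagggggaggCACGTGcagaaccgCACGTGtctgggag
Tef, chr15:81811254-81811313, plus strand: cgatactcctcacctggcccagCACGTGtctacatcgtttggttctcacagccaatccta
Bhlhe41, chr6:145865561-145865620, minus strand: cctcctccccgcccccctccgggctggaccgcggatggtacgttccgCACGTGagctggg
Per1, chr11:69098759-69098818, plus strand: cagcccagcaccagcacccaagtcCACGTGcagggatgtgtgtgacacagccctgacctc
Per3, chr4:151044806-151044885, minus strand: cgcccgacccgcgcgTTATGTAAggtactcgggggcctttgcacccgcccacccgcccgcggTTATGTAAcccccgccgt
The Ciart copies began 116, 58 and 44 bases before the start. The stretch shown for Tef lies before its downstream start. Nfil3 held 1 ROR half-site TAGGTCA, 12 bases before its start, a motif found in 2.23% of windows. The windows of Dbp, Hlf, Rora and Usp2 held none of the letters searched. Bases outside the windows, such as introns and distal sites, were not searched.

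Values are FPKM (fragment counts divided by gene length and by library size), so a comparison of levels between genes depends on the lengths used. The values implied totals of 33717125 to 39474527 fragments per library. On the first principal component, with 47.2% of the variance, ACSS2-flox replicate 1 (at -47.7) and ACSS2-HKO replicate 3 (at 27.6) were far from the other libraries (2.51 to 8.49). In ACSS2-flox replicate 1 the shortest 10% of genes read a median of 0.28 higher than in the other ACSS2-flox libraries, on the log2(FPKM + 1) scale, and the longest 10% a median of -0.55. Acss2 read 87.8, 61.5 and 58.5 FPKM in ACSS2-flox, against 50.6, 38.4 and 45.7 FPKM in ACSS2-HKO, lower in each library labelled ACSS2-HKO but far from absent. In the limma fit used below, the log2 fold change of Acss2 was -0.60 ± 0.21 (SE, adjusted p = 0.637), and -0.42 without ACSS2-flox replicate 1. Hepatocyte markers (6 of 6 present, Alb among them) summed to 56019 to 87682 FPKM in ACSS2-flox and 47988 to 56146 FPKM in ACSS2-HKO. The 8 neutrophil markers summed to 8.01 to 17.5 and 38.9 to 349.7 FPKM, with Ly6g and Mpo listed at 0 in all ACSS2-flox libraries, and the 10 macrophage markers to 370.7 to 579.4 and 688.9 to 1703 FPKM. The 7 T and NK cell markers in the table summed to 3.92 to 7.25 and 3.62 to 9.67 FPKM. The 5 endothelial markers summed to 31.2, 128.0 and 156.3 FPKM in ACSS2-flox replicates 1, 2 and 3, and to 103.0 to 121.5 FPKM in ACSS2-HKO. The part that the cell mix played in the results below was not tested, and in bulk liver fewer cells of a type cannot be told apart from less RNA per cell.

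Of the 9 members, 5 had all their ACSS2-HKO values below all their ACSS2-flox values: the PAR bZIP activators Dbp, Tef and Hlf and the outputs Ciart and Usp2. The groups overlapped for Nfil3, Bhlhe40, Bhlhe41 and Rora, and no member was higher without overlap. Among all 9818 genes that averaged 1 FPKM or more, 2.94% were lower without overlap and 12.5% higher. By sign, 7 of the 8 tested members were negative, against 34% of genes. After median-ratio scaling of the libraries the same 5 members were lower without overlap, against 6.75% of genes lower and 7.55% higher in that way. The median log2 fold change of the 8 tested members was -0.45, and that of all tested genes was 0.10. Scaling moved the latter by 0.11, to -0.01, so changes relative to it are given as well. By limma with Benjamini-Hochberg adjustment 0 members and 0% of genes passed the threshold of 0.05, and the members' adjusted p ran from 0.580 to 0.863. At an unadjusted p under 0.05, limma had 4 members lower (Ciart, Usp2, Dbp and Tef) and 0 higher, against 1.5% of all genes lower (147) and 6.09% higher (598). After median-ratio scaling these were 302 (3.08%) and 371 genes. With voom on the recovered fragments 0 members passed after adjustment as well. All 9 members carry a circadian or rhythmic process term in the deposited annotation.

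**Figure D1:**
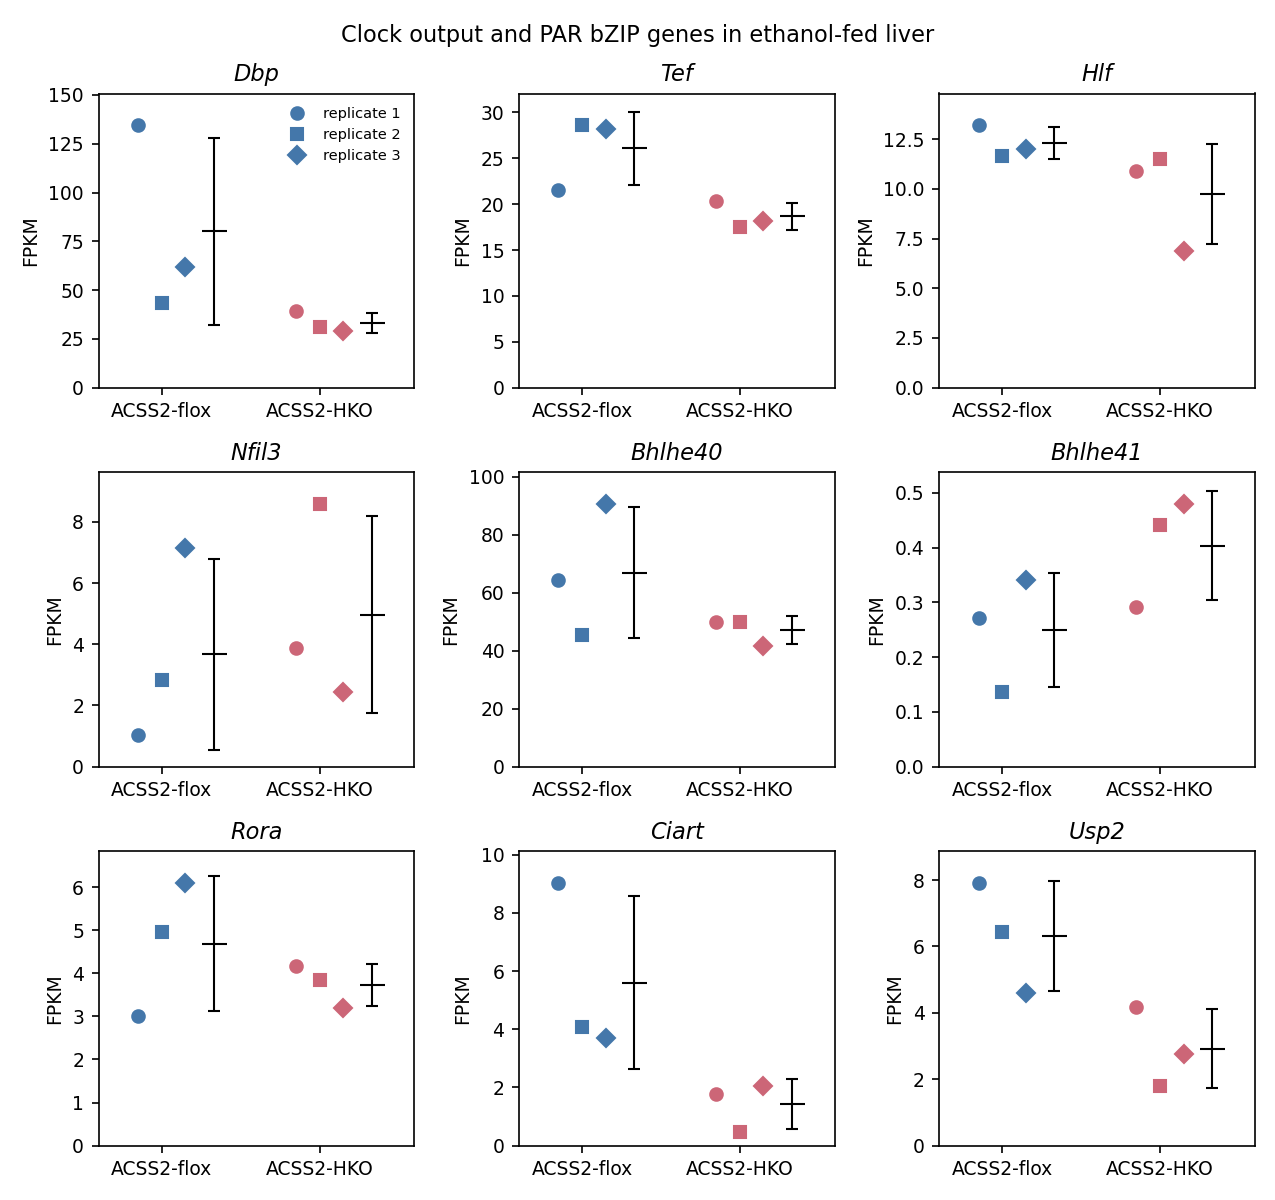
FPKM of the 9 members in each library. Points are libraries (circle, square and diamond for replicates 1, 2 and 3), and the bar with whiskers is the mean ± SD of 3. Dbp, Tef, Hlf, Ciart and Usp2 show no overlap between the groups, and ACSS2-flox replicate 1 holds the highest Dbp (135 FPKM) and Ciart (9.03 FPKM) and the lowest Nfil3 (1.05 FPKM).

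The PAR bZIP activators Dbp, Tef and Hlf read lower in ACSS2-HKO without overlap, and none passed after adjustment. Whether their log2 fold changes differ from each other was not tested, and without ACSS2-flox replicate 1 those of Dbp and Tef were -0.64 and -0.58. Dbp (chr7:45705088-45710203, plus strand), the most rhythmic of them in liver, read 135, 43.5 and 62.0 FPKM in ACSS2-flox replicates 1, 2 and 3, against 39.1, 31.3 and 29.1 FPKM in ACSS2-HKO. ACSS2-flox replicate 1 was far above all others, and the ACSS2-HKO libraries lay close together, 1.34-fold from lowest to highest against 3.1-fold in ACSS2-flox. On average Dbp stood at 80.0 ± 48.2 FPKM in controls and 33.2 ± 5.26 FPKM in knockouts (SD, n = 3), 2.41-fold apart. The log2 fold change was -1.09 ± 0.37 (SE, limma), or -1.19 relative to all genes, and the adjusted p was 0.637. It was -0.64 without ACSS2-flox replicate 1, and the groups still did not overlap.

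Tef (chr15:81802421-81826863, plus strand) encodes the PAR bZIP factor first found in the thyrotroph cells of the pituitary. It read 21.5, 28.6 and 28.2 FPKM in ACSS2-flox, against 20.3, 17.5 and 18.2 FPKM in ACSS2-HKO. Here ACSS2-flox replicate 1 was the low control, close above the highest ACSS2-HKO library. Its log2 fold change by limma was -0.46 ± 0.18 (adjusted p = 0.637), and it became -0.58 without ACSS2-flox replicate 1. By the length behind its FPKM, 6127 bases, Tef lies in class 9 of 10 from short to long. In that class ACSS2-flox replicate 1 read a median of -0.48 against the other ACSS2-flox libraries, and Tef itself read -0.39. Usp2 (0.47) and Hlf (0.15), of the same class, read higher in that library instead. So did Dbp (1.36) and Ciart (1.04), with a class median of -0.17. Bhlhe40 read 0.002 (class median -0.22) and Nfil3 -1.44 (class median -0.38). Whether gene length accounts for any of these values was not tested.

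Hlf (chr11:90336536-90390895, minus strand), the hepatic leukaemia factor gene, read 13.2, 11.7 and 11.9996 FPKM in ACSS2-flox. In ACSS2-HKO it read 10.9, 11.5 and 6.86 FPKM. The gap between the groups was small, from 11.5 to 11.7 FPKM, and only ACSS2-HKO replicate 3 was well below the controls. By limma the log2 fold change was -0.34 ± 0.22 (adjusted p = 0.725). Without ACSS2-HKO replicate 3 it was -0.13. That library also had the highest sums of neutrophil (349.7 FPKM) and macrophage (1703 FPKM) markers, and a link to Hlf was not tested. Among the ACSS2-HKO libraries it held the lowest Dbp (29.1 FPKM) and the highest Ciart (2.06 FPKM).

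Nfil3 (chr13:52967209-52981073, minus strand), the D-box repressor, showed no difference between genotypes beyond the spread. It read 1.05, 2.82 and 7.13 FPKM in ACSS2-flox, against 3.88, 8.59 and 2.45 FPKM in ACSS2-HKO, from 158 to 1376 fragments. The libraries of both groups were interleaved, with a 6.79-fold range within ACSS2-flox, the widest of the members there, and a 3.5-fold range within ACSS2-HKO, where Ciart ranged 4.5-fold. The log2 fold change was 0.45 ± 0.52 by limma (adjusted p = 0.863), and the exact permutation p was 0.5 (two-sided, 3 libraries against 3). Leaving out ACSS2-flox replicate 1 gave -0.03, ACSS2-flox replicate 3 gave 0.96, ACSS2-HKO replicate 2 gave 0.04 and ACSS2-HKO replicate 3 gave 0.78.

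A ratio of an activator to Nfil3 within a library does not depend on how libraries are scaled. The log2 ratio of Dbp to Nfil3 was 7.002, 3.94 and 3.12 in ACSS2-flox, against 3.33, 1.87 and 3.57 in ACSS2-HKO. Most of the difference of -1.77 came from ACSS2-flox replicate 1, without which it was -0.61. For Tef the ratio was 4.36, 3.34 and 1.98 against 2.39, 1.02 and 2.89. For Hlf it was 3.65, 2.05 and 0.75 against 1.49, 0.42 and 1.48. The groups overlapped for all 3 ratios. Every ratio was above 0 in every library, so each activator's level exceeded that of Nfil3 per length throughout, and ACSS2-HKO replicate 2 had the lowest value of each.

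**Figure D2:**
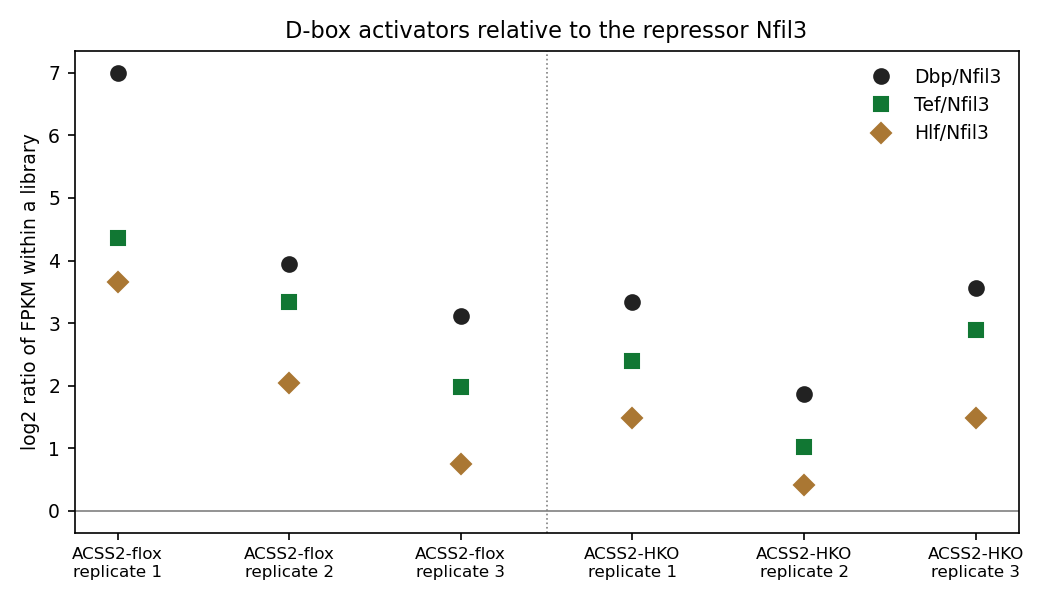
Log2 ratio of Dbp, Tef and Hlf FPKM to Nfil3 FPKM within each of the 6 libraries, with ACSS2-flox left and ACSS2-HKO right of the dotted line. ACSS2-flox replicate 1 is highest (7.002 for Dbp) and ACSS2-HKO replicate 2 lowest (0.42 for Hlf), and the groups overlap for each ratio.

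The clock outputs Ciart and Usp2 were among the 3 tested members with the largest log2 differences, beside Dbp. Ciart (chr3:95878503-95882251, minus strand) read 9.03, 4.08 and 3.69 FPKM in ACSS2-flox, against 1.79, 0.458 and 2.06 FPKM in ACSS2-HKO. Each control library was above each knockout library, and ACSS2-HKO replicate 2 was lowest with 39 fragments against 722 in ACSS2-flox replicate 1. On average Ciart stood at 5.60 ± 2.98 FPKM in controls and 1.44 ± 0.858 FPKM in knockouts (SD, n = 3), 3.9-fold apart. By limma the log2 fold change was -1.42 ± 0.37 (adjusted p = 0.580), and the exact permutation p of 0.1 is the smallest that 3 against 3 allows. With each library left out in turn the log2 fold change ran from -1.62 to -1.07. The value moves with the pseudocount, which was 1: it was -1.996 with a pseudocount of 0.1 and -0.69 with 5. With voom it was -2.15.

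Usp2 (chr9:44067021-44095627, plus strand) read 7.91, 6.44 and 4.58 FPKM in ACSS2-flox, against 4.19, 1.81 and 2.77 FPKM in ACSS2-HKO. The highest ACSS2-HKO library lay just under the lowest control. Means were 6.31 ± 1.67 and 2.92 ± 1.197 FPKM (SD, n = 3), a 2.16-fold difference. The log2 fold change was -0.92 ± 0.27 by limma (adjusted p = 0.631) and stayed between -1.14 and -0.70 with single libraries left out. With a pseudocount of 5 it was -0.51. Usp2 has 2 promoters that give different proteins, and the gene-level value does not separate them.

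**Figure D3:**
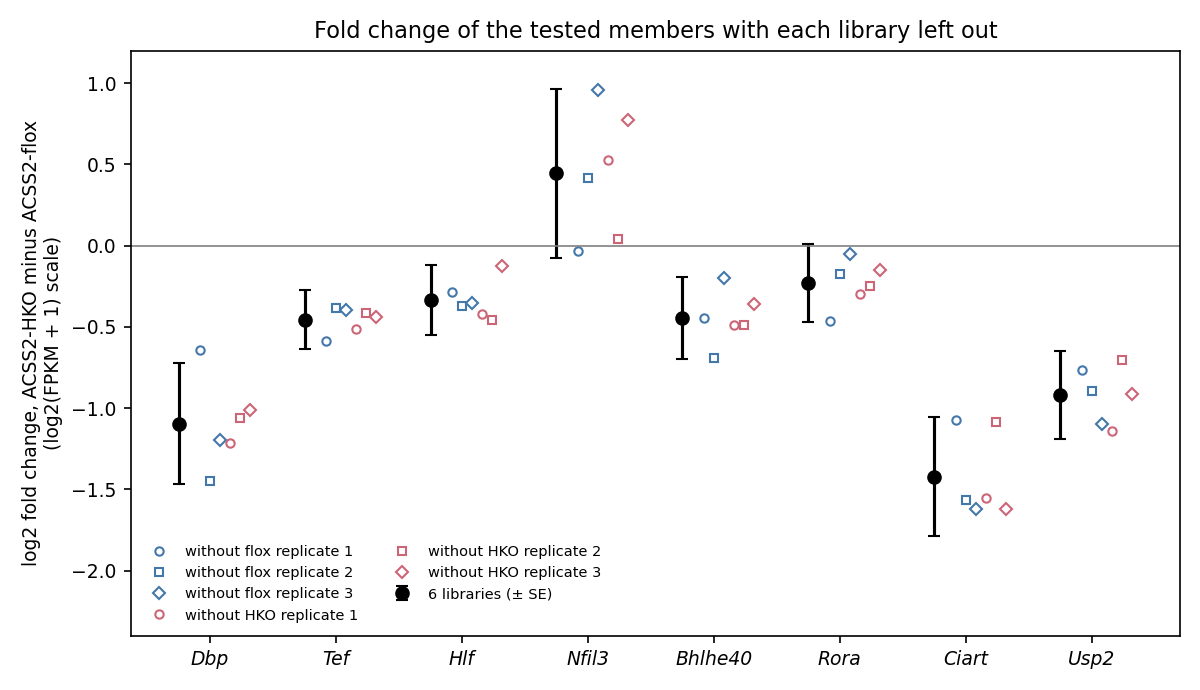
Log2 fold change of the 8 tested members, ACSS2-HKO minus ACSS2-flox on the log2(FPKM + 1) scale. Filled points with bars are the fit to 6 libraries ± SE, and open symbols leave out 1 library each. Ciart stays between -1.62 and -1.07 and Usp2 between -1.14 and -0.70, whereas Nfil3 moves from 0.96 to -0.03 and Dbp reaches -0.64 without ACSS2-flox replicate 1.

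The DEC repressors and the ROR receptor overlapped between genotypes. Bhlhe40 (chr6:108660629-108666925, plus strand) was the most abundant member beside Dbp. It read 64.3, 45.5 and 90.5 FPKM in ACSS2-flox, against 49.98, 49.9 and 41.6 FPKM in ACSS2-HKO. ACSS2-flox replicate 2 lay inside the ACSS2-HKO range, while the other controls were above it. Its log2 fold change by limma was -0.44 ± 0.25 (adjusted p = 0.692), -0.20 without ACSS2-flox replicate 3 and -0.69 without ACSS2-flox replicate 2.

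Bhlhe41 (chr6:145858243-145865558, minus strand) was nearly silent and stayed below the filter of 1 FPKM. It read 0.271, 0.136 and 0.341 FPKM in ACSS2-flox, against 0.291, 0.441 and 0.480 FPKM in ACSS2-HKO, on 31 to 116 fragments. ACSS2-HKO replicate 1 lay between the controls. In a limma fit with no filter its log2 fold change was 0.17 ± 0.08 (adjusted p = 0.713), opposite in sign to that of Bhlhe40. Whether these differences differ from each other was not tested.

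Rora (chr9:68653786-69388246, plus strand) read 3.01, 4.97 and 6.09 FPKM in ACSS2-flox, against 4.16, 3.85 and 3.20 FPKM in ACSS2-HKO. ACSS2-flox replicate 1 was the lowest of all 6 libraries and the other controls were the highest. The log2 fold change was -0.23 ± 0.24 by limma (adjusted p = 0.838), and leaving out ACSS2-flox replicate 1 gave -0.46, ACSS2-flox replicate 3 -0.05 and ACSS2-HKO replicate 3 -0.15. Rora has the greatest length of the members, 14941 bases, in the longest class. It read -0.70 in ACSS2-flox replicate 1 against the other controls, beside the median of -0.55 for that class. After correction of each library for gene length the log2 fold change of Rora was -0.32. Rora, Nfil3 and Bhlhe40 are also expressed by lymphoid and myeloid cells, whose markers are given above.

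By level, Bhlhe40 (mean of 57.0 FPKM over the 6 libraries) and Dbp (56.6 FPKM) came first and their ranges overlapped. In ACSS2-flox the mean of Dbp (80.0 FPKM) was above that of Bhlhe40 (66.8 FPKM), and in ACSS2-HKO it was below (33.2 and 47.2 FPKM). Tef (22.4 FPKM) lay below every Dbp value and above every Hlf value. Hlf (11.02 FPKM) came next, and its range overlapped that of Usp2. Usp2 (4.62 FPKM), Nfil3 (4.32 FPKM), Rora (4.21 FPKM) and Ciart (3.52 FPKM) overlapped over the 6 libraries. Within ACSS2-HKO every Nfil3 value (at least 2.45 FPKM) and every Rora value (at least 3.20 FPKM) was above every Ciart value (at most 2.06 FPKM). Within ACSS2-flox the Ciart mean (5.60 FPKM) was above those of Rora (4.69 FPKM) and Nfil3 (3.67 FPKM), with overlap. Bhlhe41 (0.327 FPKM) was last, its highest library just above the lowest of Ciart.

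Within the core clock loop, the repressor gene Per1 read lower and the oscillator gene Arntl higher in ACSS2-HKO, and neither passed after adjustment. The hour at which livers were taken is not given, so whether the groups differed in time of day was not tested. Per1 read 3.59, 4.18 and 3.05 FPKM in ACSS2-flox, against 1.22, 1.29 and 1.33 FPKM in ACSS2-HKO, with no overlap. Of all tested genes 2.94% were lower in that way. By limma its log2 fold change was -1.01 ± 0.17 (adjusted p = 0.452), and -0.45 with a pseudocount of 5. Arntl, which encodes BMAL1, read 0.0493, 0.0809 and 0.0176 FPKM in ACSS2-flox, from 32, 58 and 13 fragments. In ACSS2-HKO it read 0.205, 0.149 and 0.163 FPKM, from 140, 103 and 124 fragments. Arntl was thus higher in each ACSS2-HKO library, 3.5-fold by means, at a level far under the filter. It was therefore tested only in the fit with no filter (limma log2 fold change 0.16 ± 0.03, adjusted p = 0.572). The share of tested genes that were higher without overlap, 12.5%, does not cover genes under the filter. The length behind its FPKM was 19267 bases, and a greater length gives a lower FPKM. The Arntl partner gene Npas2 was at most 0.144 FPKM and overlapped.

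The core clock list holds 14 genes, of which 12 were tested. Of these, 8 had negative log2 fold changes, 2 were lower at an unadjusted limma p under 0.05 (Per1 and Nr1d2) and 0 were higher. Over all tested genes those shares were 34%, 1.5% and 6.09%. The median log2 fold change of the 12 genes was -0.17. Per1, Per3 and Nr1d2 were lower without overlap and Clock higher, against 2.94% and 12.5% of all tested genes. Per3 read 4.998, 3.62 and 3.31 FPKM in ACSS2-flox, against 3.25, 1.86 and 2.55 FPKM in ACSS2-HKO. Nr1d2, which encodes the repressor REV-ERBβ, read 21.0, 29.3 and 32.4 FPKM and 20.8, 18.6 and 17.6 FPKM. Clock had a log2 fold change of 0.50 ± 0.30, which was 0.15 without ACSS2-flox replicate 1, where it read 1.09 FPKM against at least 3.21 FPKM elsewhere. Per2 (-0.15), Nr1d1 (-0.17), Cry1 (-0.23), Cry2 (0.09), Csnk1d (0.19) and Csnk1e (0.22) overlapped. Without ACSS2-flox replicate 1 Per2 read -0.04 and Csnk1e 0.06, and without ACSS2-HKO replicate 2 Per2 read -0.06. The sign of Nr1d1 and of Csnk1d turned without ACSS2-flox replicate 1, that of Cry1 turned without ACSS2-flox replicate 2, and that of Cry2 turned with every other scaling tried.

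Known and reported targets of the D-box factors were mostly lower by sign, with wide spread. Of 13 such genes tested, 12 had negative log2 fold changes, 3 were lower at an unadjusted limma p under 0.05 and 0 higher, and 2 were lower without overlap. Over all tested genes 34% were negative, 1.5% lower and 6.09% higher at that p, and 2.94% lower without overlap. The list median was -0.51. Cyp7a1, the rate-limiting enzyme of bile acid synthesis, read 63.2, 135 and 40.6 FPKM in ACSS2-flox, against 34.6, 26.7 and 15.8 FPKM in ACSS2-HKO, which by limma gave -1.48 ± 0.44 on the log2 scale (adjusted p = 0.623). Acot4, a peroxisomal acyl-CoA thioesterase gene, had -0.55 ± 0.19 and also did not overlap. Nr1i3, which encodes the xenobiotic receptor CAR, had -0.53 ± 0.23 and Cyp2a5 -0.51 ± 0.30, both with overlap, and Nr1i3 read -0.33 without ACSS2-flox replicate 1. The exception by sign, the CAR target Cyp2b10, ranged from 0.805 to 156 FPKM over the libraries. Among the negative genes the sign of Por turned to 0.23 without ACSS2-HKO replicate 2. That of Acot2 turned to 0.12 without ACSS2-HKO replicate 3, and that of Fgf21 to 0.87 without ACSS2-flox replicate 3. The median of these targets was -0.17 without ACSS2-HKO replicate 3 and -0.31 without ACSS2-flox replicate 3. Of the 12 with a start window, 0 held the D-box searched.

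Most of the other rhythmic liver outputs were also lower by sign. Of 8 tested, 6 were negative, 4 were lower and 1 higher at an unadjusted limma p under 0.05, and the median was -0.62. Over all tested genes 34% were negative, and 1.5% were lower and 6.09% higher at that p. Upp2, the liver uridine phosphorylase, read 84.3, 37.8 and 30.6 FPKM in ACSS2-flox, against 17.3, 7.90 and 10.6 FPKM in ACSS2-HKO, so that the ACSS2-flox mean was 4.27 times the ACSS2-HKO mean. By limma the log2 fold change was -1.93 ± 0.40 (adjusted p = 0.494). Noct, the rhythmic NADPH phosphatase nocturnin, read 19.0, 17.1 and 8.49 FPKM and 4.54, 6.48 and 3.93 FPKM, a log2 fold change of -1.36 ± 0.31. Neither overlapped. Gys2, the liver glycogen synthase gene, had -0.64 ± 0.22. Cdkn1a, which encodes the cell cycle inhibitor p21, was higher in each ACSS2-HKO library, with a log2 fold change of 1.14 ± 0.36.

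The remaining lists place the members among genes with related control. Over all tested genes 34% were negative, and the median was 0.10. At an unadjusted limma p under 0.05, 1.5% of them were lower and 6.09% higher. Without overlap, 2.94% were lower and 12.5% higher. Of 9 glucocorticoid-induced genes, Per1 among them, 8 were negative, 2 were lower at an unadjusted limma p under 0.05 and 3 were lower without overlap, with a median of -0.55. Klf9, a Krüppel-like factor gene, had -0.67 ± 0.20 and Dusp1 -0.73 ± 0.33, the latter -0.35 without ACSS2-flox replicate 3, while the co-chaperone gene Fkbp5 read 0.58 ± 0.27, and 0.33 without ACSS2-HKO replicate 1. Of 7 ROR and REV-ERB targets 4 were tested, with a median of -0.20 and 0 at an unadjusted p under 0.05 in either direction by limma. The 30 tested genes that the deposited annotation places in the bZIP family, members left out, had 12 negative values and a median of 0.05. Among them 0 were lower and 2 higher at an unadjusted limma p under 0.05 (Junb and Creb3l2), and 0 were lower and 3 higher without overlap. The 114 tested genes with a circadian term in that annotation, members left out, had 46 negative and 68 positive values and a median of 0.06. Of these, 3 were lower and 2 higher at that p by limma, and 8 were lower and 5 higher without overlap. The difference between the members and these lists was not tested.

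**Figure D4:**
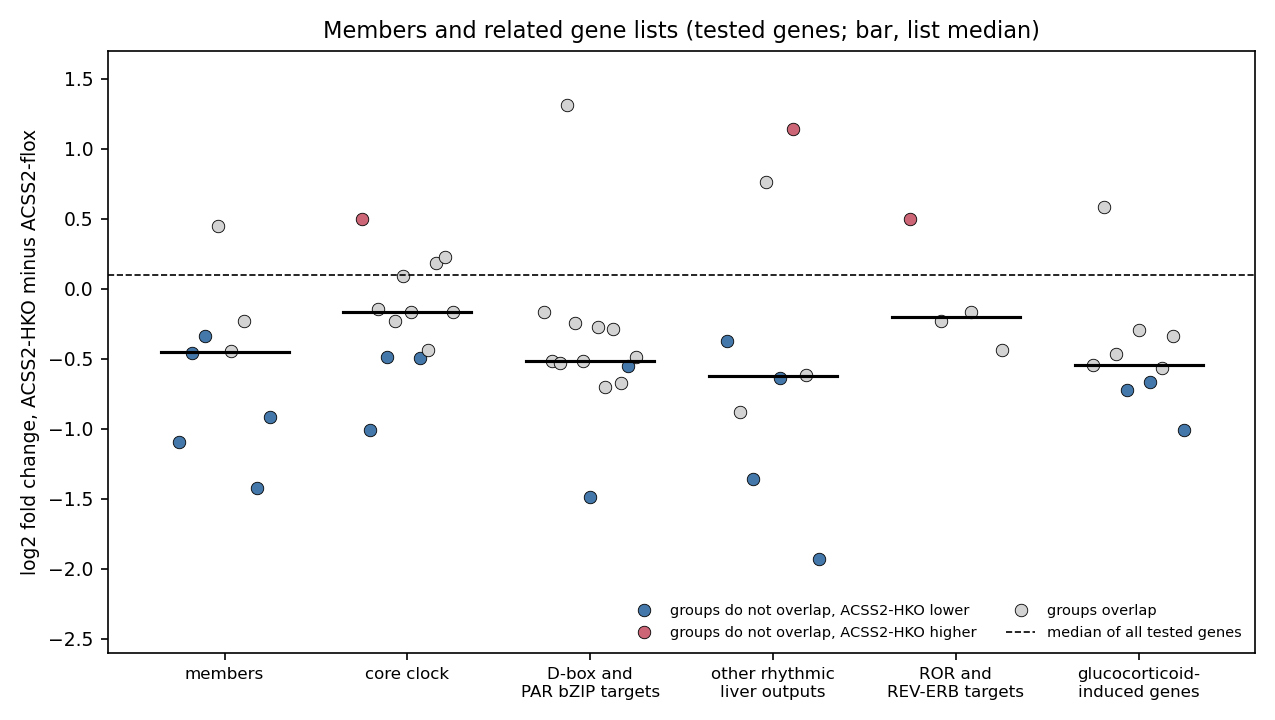
Log2 fold change (ACSS2-HKO minus ACSS2-flox) of the tested members and of the tested genes of 5 related lists. Each point is a gene, the bar is the list median and the dashed line is the median of all tested genes (0.10). Blue points are lower and red points higher without overlap, and the list medians lie between -0.62 and -0.17.

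The genes whose profiles over the 6 libraries were most like a member's were sought among 9810 other tested genes by Pearson's r of log2(FPKM + 1), as a description that shares library and depth effects. For Dbp they were Clcn2 (r = 0.994), Pyurf (0.987) and Sult1b1 (0.986), which all peaked in ACSS2-flox replicate 1. For Ciart they were Cebpa (0.978), Acss2 (0.978) and Tbce (0.962). Rfc4 (0.984) was among those nearest to Nfil3, with a log2 fold change of 0.11. For Rora they were Kansl3 (0.998), Rabgap1l (0.987) and Ryk (0.985), with log2 fold changes from -0.17 to -0.13.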

How the data were processed

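Liver RNA of 6 libraries was compared, 3 of each genotype, grouped by the genotype label. The authors deposited 1 table of FPKM values. Per the submitters' processing notes the build was mm10, and DESeq2 is named there with no role. No source used here gives the aligner, counter or annotation. Whole fragments (within 0.01) were found for 99.7% of genes. In simulated data the same procedure returned every count for 95.6% of genes. Genes averaging 1 FPKM or more were tested on log2(FPKM + 1) with limma 3.58.1 in R 4.3.3 (mean-variance trend, two-sided, Benjamini-Hochberg adjustment), and single members by exact permutation over 20 arrangements. The procedures were tested on simulated data. With each gene's spread taken from these data, limma called 27.4% of 2-fold and 75.3% of 4-fold changes at an adjusted p under 0.05. It also called 9 unchanged genes. Genes were drawn independently, so the simulation held no effect shared within a library beyond depth, unlike the 2 distant libraries here. Alternatives covered the pseudocount, filter, scaling, length correction, weights, replicate block and libraries left out. The members and lists were chosen with earlier results of these data known. Named were the members, Acss2, the core clock genes, up to 4 genes of smallest p per list, and the 3 most similar genes for Dbp, Ciart, Nfil3 and Rora. Some genes that this rule names are not reported here. Cyp2b10, Por, Acot2 and Fgf21 were named after their values were seen. Gene positions are from GENCODE M21 (GRCm38) and start windows from RefSeq.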

Additional observations from a re-analysis of the deposited data

How the results depend on the processing

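Over the alternatives run, Dbp, Tef, Hlf, Bhlhe40, Rora, Ciart and Usp2 kept a negative log2 fold change, and no member passed after adjustment. Leaving out 1 library at a time moved Nfil3 between -0.03472 and 0.9594. At a filter of 5 FPKM, which drops Usp2, Ciart, Nfil3 and Rora from the fit, 2 members were lower at an unadjusted p under 0.05 and 3 lower without overlap. The fit on voom was chosen after seeing the data.

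The replicate numbers gave no sign of pairing: deviations of same-numbered libraries from their group means correlated at 0.0132, 0.0032 and -0.0627. Those of different-numbered libraries ran from -0.17 to 0.15. With so few libraries these values cannot exclude a pairing. With the replicate number as a block, limma called 4 genes at an adjusted p under 0.05 (Hamp2, Ifi27l2b, Mup2 and Upp2), none a member. With single libraries left out it called 0 to 3, the 3 without ACSS2-HKO replicate 2.

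Genes lower at an unadjusted p under 0.05 numbered 147, against 295 with TMM, 302 with median-ratio scaling, 357 with quantile normalization, 394 with length correction, 382 with array weights, 376 without both distant libraries (ACSS2-flox replicate 1, ACSS2-HKO replicate 3), 281 with voom and 74 to 464 with single libraries left out. Genes higher numbered 598, against 917 with no filter, 311 at a filter of 5 FPKM, 381 with TMM, 371 with median-ratio scaling, 391 with quantile normalization, 394 with length correction, 359 with voom and 267 to 577 with single libraries left out.

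The median log2 fold change of D-box factor targets was -0.6354 with TMM, -0.6429 with median-ratio scaling, -0.3475 with array weights, -0.2998 without both distant libraries, -0.667 with voom and -0.6375 to -0.166 with single libraries left out. That of glucocorticoid-induced genes was -0.4471 with a pseudocount of 5, -0.6664 with TMM, -0.6735 with median-ratio scaling, -0.6762 with length correction, -0.7334 with array weights, -0.6857 without both distant libraries, -0.6766 with voom and -0.803 to -0.3465 with single libraries left out. That of ROR and REV-ERB targets was 0.04141 with no filter, which tests more genes.

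The sign of Cry2 turned to -0.01454 with TMM, -0.02106 with median-ratio scaling, -0.03127 with quantile normalization, -0.03968 with length correction, -0.05106 with array weights, -0.1182 without both distant libraries and -0.02276 with voom, and single libraries left out gave -0.08941 to 0.2014. Csnk1d turned to -0.08071 with array weights and -0.146 without both distant libraries (-0.111 to 0.3411 with single libraries left out). Nr1d1 turned to 0.08893 and 0.1577 in those fits (-0.4461 to 0.06329), and Cry1 ran from -0.5623 to 0.02365. The cause of these moves was not tested. Bhlhe41 and Arntl, with 13 to 140 fragments per library, are limited by depth.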
